A study of Mus musculus with 6 samples.

Results

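The genes described here are 48 cell cycle and DNA replication genes of mouse mesenchymal stem cells, a stromal cell type with fat, bone and cartilage fates. They were taken by symbol from an array table: 47 of the 48 had a probe set that the platform annotation gives to that gene alone, out of 18193 genes measured in this way, and each gene was read from its brightest such probe set. Ccnb1, the gene of cyclin B1, had no such probe set and was not analysed here. The irradiated group held 3 cultures exposed for 2 h to a continuous-wave terahertz laser at 2.52 THz (far-infrared light of 118.8 µm), 1 culture in each of 3 independent experiments. The control group held 3 unexposed cultures, each kept next to the irradiated one of its experiment, with both at 26 to 27 °C. Cells of both groups came from a commercial supplier and carried the same additions, given anew 48 h before the exposure: insulin at 5 µg/ml, isobutylmethylxanthine at 100 µM, and rosiglitazone and dexamethasone at 1 µM each, a mixture commonly used to make such cells into fat cells. RNA was taken right after the exposure and each culture was read on 1 Affymetrix array, so the number of arrays limits the precision. The question the design sets is which transcripts differ between an exposed culture and its own control.

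Cells that divide pass through a fixed order of gene expression. D-type and E-type cyclins carry a cell from growth into DNA synthesis, where E2F factors switch on the licensing and replication genes. Genes of mitosis are switched on later, by FOXM1 and B-MYB with the MuvB complex. These act through a promoter element called the cell cycle genes homology region (CHR), often next to CCAAT boxes bound by NF-Y. Cells that turn into fat cells leave the cycle, in some culture models after a further round of division. The level of these transcripts can thus vary with the number of cycling cells, which was not counted here. In bulk RNA fewer cycling cells and less of a transcript in each cell cannot be told apart.

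Promoters of 4 replication and 4 mitotic genes are shown as examples, because the early, replication arm and the late, mitotic arm are known to carry different elements. They are those of the genes described below that have the smallest p among experiments and a usable window, a test that no member passed. Each line is the 120 bases before the annotated start, 5′ to 3′ on the gene's strand, from RefSeq (GRCm38.p6), with matches in capitals. For E2F the letters searched on both strands were TTCCCGC, its variant TTGGCGC, a further variant TTGCCGC and, as the last variant, TTCGCGC. For CHR they were TTTGAA with its variant TTCGAA, and for NF-Y the box CCAAT.
Rfc3, chr5:151651209-151651328, minus strand: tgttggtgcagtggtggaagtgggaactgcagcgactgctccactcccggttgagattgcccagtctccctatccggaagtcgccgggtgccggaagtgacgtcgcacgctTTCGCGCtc
Pcna, chr2:132253181-132253300, minus strand: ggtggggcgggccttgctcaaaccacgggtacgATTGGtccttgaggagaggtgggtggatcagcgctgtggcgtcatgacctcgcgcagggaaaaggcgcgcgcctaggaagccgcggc
Mcm6, chr1:128359706-128359825, minus strand: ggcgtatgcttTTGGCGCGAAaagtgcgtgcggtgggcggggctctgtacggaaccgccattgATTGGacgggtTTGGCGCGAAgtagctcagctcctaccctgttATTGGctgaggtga
Cdt1, chr8:122567895-122568014, plus strand: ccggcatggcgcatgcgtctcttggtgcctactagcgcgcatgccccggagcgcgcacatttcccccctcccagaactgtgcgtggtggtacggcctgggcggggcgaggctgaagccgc
Bub1b, chr2:118598091-118598210, plus strand: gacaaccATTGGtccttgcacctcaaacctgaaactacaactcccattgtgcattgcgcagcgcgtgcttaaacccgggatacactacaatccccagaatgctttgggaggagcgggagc
Cenpa, chr5:30666766-30666885, plus strand: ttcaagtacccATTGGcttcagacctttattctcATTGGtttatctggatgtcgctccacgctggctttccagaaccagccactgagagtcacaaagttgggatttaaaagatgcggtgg
Top2a, chr11:99024190-99024309, minus strand: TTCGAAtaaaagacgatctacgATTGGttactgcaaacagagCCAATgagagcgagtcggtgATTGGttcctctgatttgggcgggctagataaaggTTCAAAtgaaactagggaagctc
Birc5, chr11:117849117-117849236, plus strand: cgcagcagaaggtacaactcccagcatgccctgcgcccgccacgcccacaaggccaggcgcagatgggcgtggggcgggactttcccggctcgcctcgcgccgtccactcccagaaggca

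In these windows Mcm6 had 4 E2F matches that lie as overlapping pairs at 2 places, and Rfc3 had 1 that starts 9 bases before the annotated start. Top2a had 2 CHR and 3 CCAAT matches, Cenpa 2 CCAAT matches, and Cdt1 and Birc5 had none of the 3 elements. Over the 250 bases before the start, which the table gave for 36 of the 48 genes, 9 of 17 measured replication genes held an E2F match (52.9%), against 2 of 17 mitotic genes (11.8%), 11.7% of the 14452 genes on the arrays with a window (1 window each) and 7.9% of all 32851 promoter windows. CHR letters stood in 7 of 17 mitotic genes (41.2%), against 2 of 17 replication genes (11.8%), 13.3% of genes on the arrays and 17.1% of all windows. CCAAT was found in 15 of 17 mitotic genes (88.2%), 10 of 17 replication genes (58.8%), 35.5% of genes on the arrays and 33.8% of all windows. The 7 mitotic genes with CHR letters were also among those with a CCAAT match. This combination was found in 2 of 17 replication genes (11.8%), 4.8% of genes on the arrays and 6.0% of all windows. These are matches of letters, and a gene without one in this window may be served by other letters or by sequence outside it.

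On the arrays' log2 scale (RMA values, 1.73 to 14.53 in this table), 42 of the 47 genes had a mean level at or above that of the median gene, 6.46. The G1 cyclins Ccnd1 and Ccnd2 had mean levels of 11.89 and 12.81, the sliding clamp gene Pcna 11.60, the proliferation marker Mki67 9.50 and the mitotic kinase gene Cdk1 9.04. The 5 genes below the median gene were Ttk (6.44), Kif11 (6.36), Cdc25c (5.63), Cdc6 (5.59) and Tyms, the thymidylate synthase gene, at 3.20, where its 3 other probe sets lay between 2.58 and 3.13. Since probes differ in how brightly they bind, such levels give no ratio between genes.

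**Figure D1:**
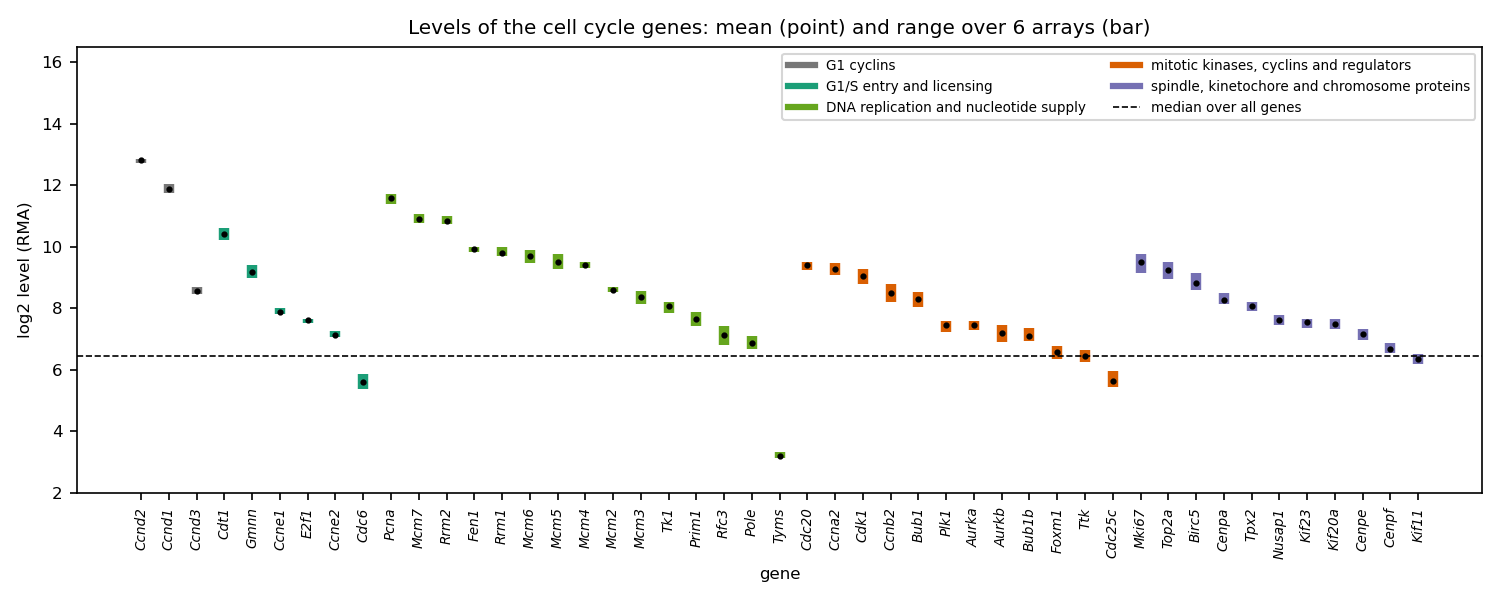
Log2 level of each of the 47 genes, with the mean over the 6 arrays as a point and the range over the arrays as a bar, coloured by role and ordered by level within a role; the dashed line is the median over all 18193 genes (6.46). In 42 genes the mean lies at or above the line, and the bars are short beside the distances between genes.

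The members varied a little more over the 6 arrays than genes in general. Their median SD over the arrays was 0.14 log2 units, against 0.11 over all genes and 0.090 over the 9099 genes in the brighter part of the table (median level and up). It was 0.15 for the 23 mitotic genes and 0.12 for the 21 replication genes. Mki67 (SD 0.23), Ccnb2 (0.21), Rfc3 (0.21) and Top2a (0.21) varied the most, and Mcm2 (0.052) and E2f1 (0.054) the least. The irradiated culture of experiment 3 was the highest array, without a tie, in 31 of the 47 genes, where it was so in 15.0% of all genes. The lowest array, without a tie, was the irradiated culture of experiment 1 in 18 genes (18.3% of all genes) and the control of experiment 3 in 16 (15.8% of all genes).

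**Figure D2:**
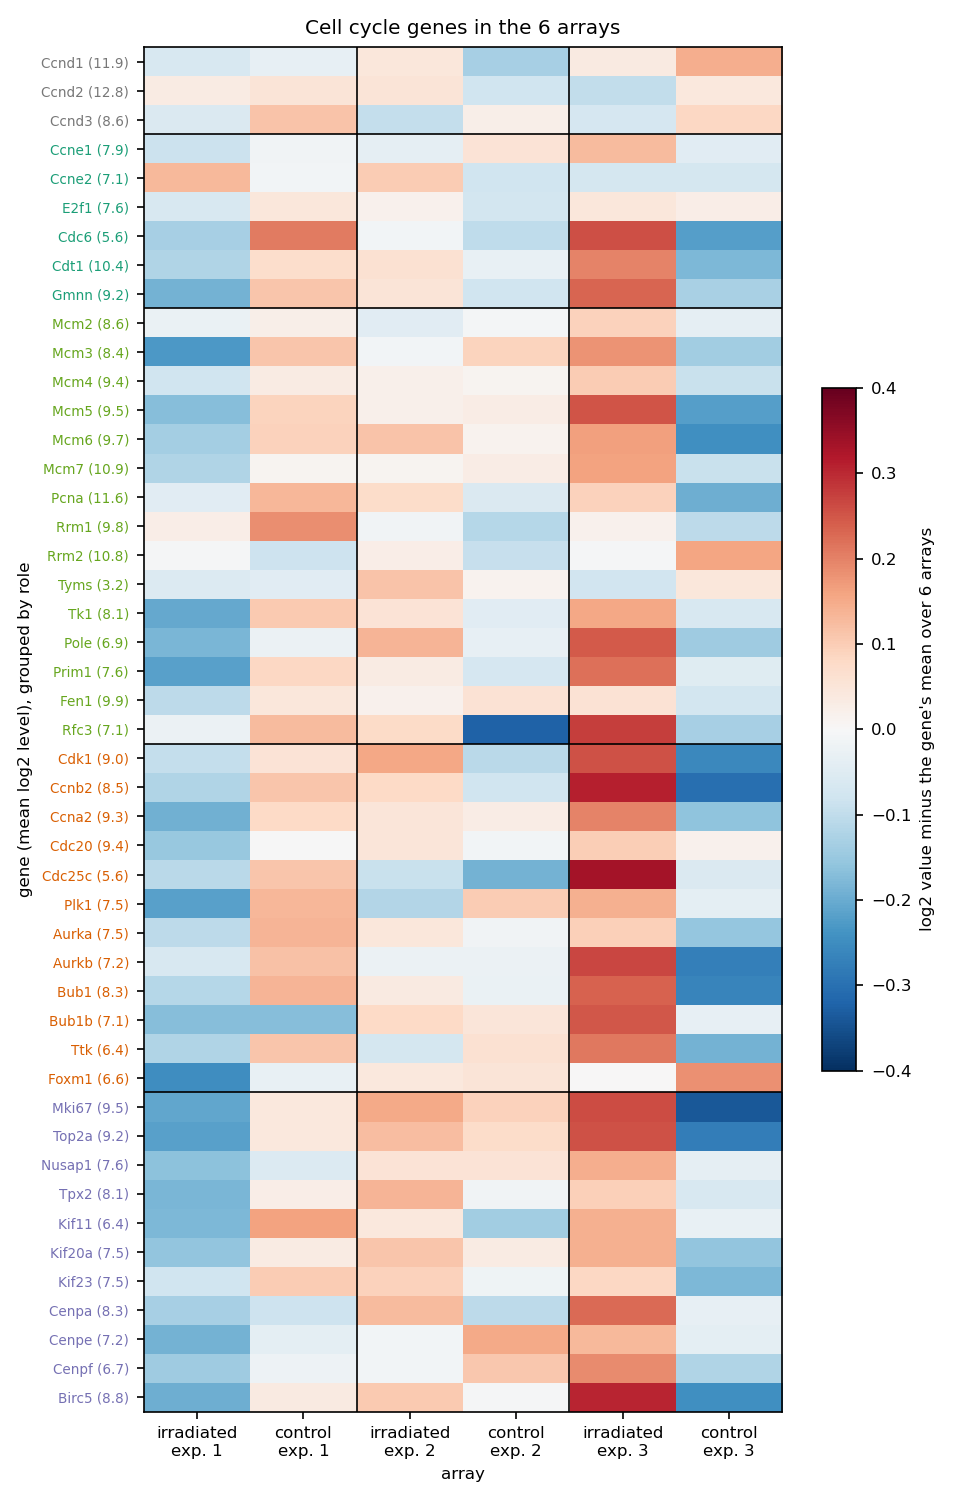
Deviation of each gene (rows, grouped by role, mean log2 level in brackets) from its own mean over the 6 arrays (columns, irradiated beside its control for experiments 1 to 3), in log2 units. Most replication and mitotic rows are low in the irradiated culture of experiment 1, high in that of experiment 3 and low in the control of experiment 3, and the 3 D-type cyclins do not share this pattern.

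No member passed the test of irradiated against control cultures. In limma, with experiments as blocks and Benjamini-Hochberg adjustment over all genes, 0 of the 47 were called, each with an adjusted p of at least 0.995, and 0 reached an unadjusted p under 0.05. Over all 18193 genes limma called 0.00%, and 3.31% had an unadjusted p under 0.05. A paired test without limma's moderation also called 0 members, with 1, Ccnd3, below that unadjusted limit (788 of all 18193 genes). With experiment 1 left out of limma, 3 members (Rfc3, Cdk1 and Cenpa) had an unadjusted p under 0.05, where 619 of all 18193 genes had. With experiment 3 left out 1 member had (Plk1), where 495 of all genes had. None of these members was called. The median difference of the members was 0.033 log2 units, against -0.010 over all genes, and 37 of 47 were above 0, against 45.2% of all genes and 40.1% of those at or above the median level. The 95% intervals of all 47 in limma lay between -0.41 and 0.55, inside 1.5-fold either way. In these intervals limma's moderation draws each gene's spread towards that of all genes. Ccnb2, for example, had -0.23, 0.16 and 0.61 in the 3 experiments, with a moderated SE of 0.15. With 3 pairs that disagree in sign, the intervals do not exclude a larger change in a member. No member was above 0 in all 3 experiments (8.23% of all genes), and 2, Ccnd3 and Foxm1, were below 0 in all 3 (12.8% of all genes). The 9 members with a mean difference below 0 were Ccnd2, Ccnd3, Mcm3, Fen1, Tyms, Cdc20, Plk1, Foxm1 and Cenpe, and E2f1 stood at 0.

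**Figure D3:**
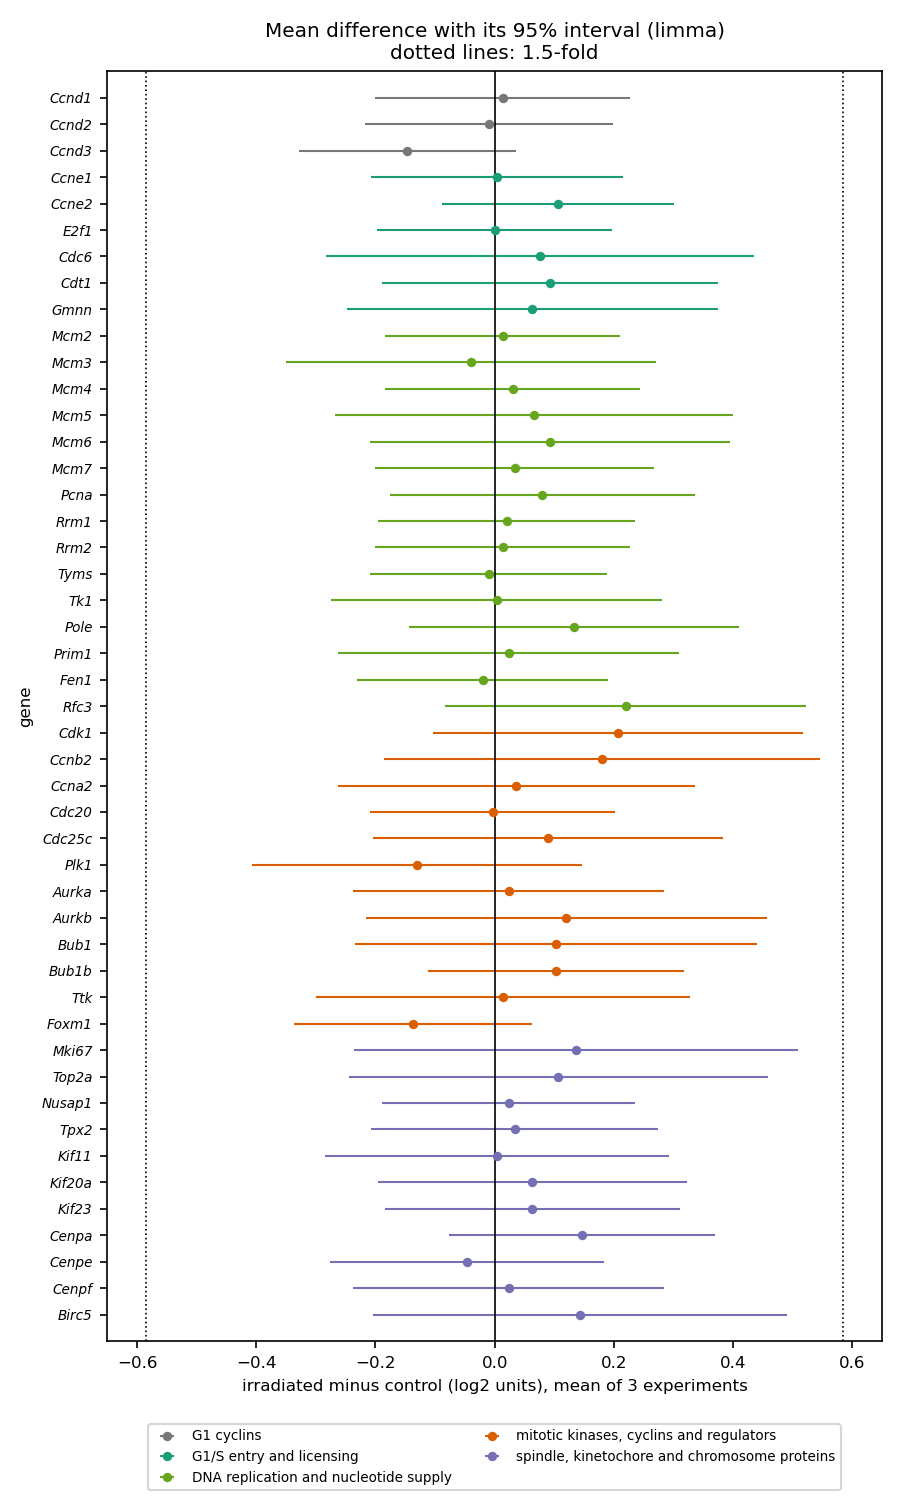
Irradiated minus control, mean of 3 experiments in log2 units, with the 95% interval from limma for each of the 47 genes, coloured by role; dotted lines mark 1.5-fold. Every interval crosses 0 and none reaches a dotted line, where limma's moderation draws each gene's spread towards that of all genes.

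The sign of the differences was not the same in the single experiments. In experiment 1 the irradiated culture was below its control in 44 of 47 genes, with a mean of -0.17 log2 units (0.887-fold). That direction was found in 56.4% of all genes and in 66.9% of those at or above the median level. In experiment 2 it was above its control in 33 of 47 genes (47.0% of all genes, 48.1% of the brighter ones) and below it in 12 (50.1% of all genes), with a mean of 0.061 (1.04-fold). In experiment 3 it was above its control in 40 of 47 (48.9% of all genes, 49.5% of the brighter ones) and below it in 6 (48.5% of all genes), with a mean of 0.25 (1.19-fold). In all, 39 genes were below 0 in experiment 1 and above 0 in experiment 3, where 29.0% of all genes and 35.5% of those at or above the median level were. The mean over the 3 experiments was 0.046 ± 0.21 log2 units (SD, n = 3 experiments), a difference smaller than the spread between experiments. Without experiment 3 the median of the members was -0.060, without experiment 1 it was 0.16, and without experiment 2 it was 0.045.

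**Figure D4:**
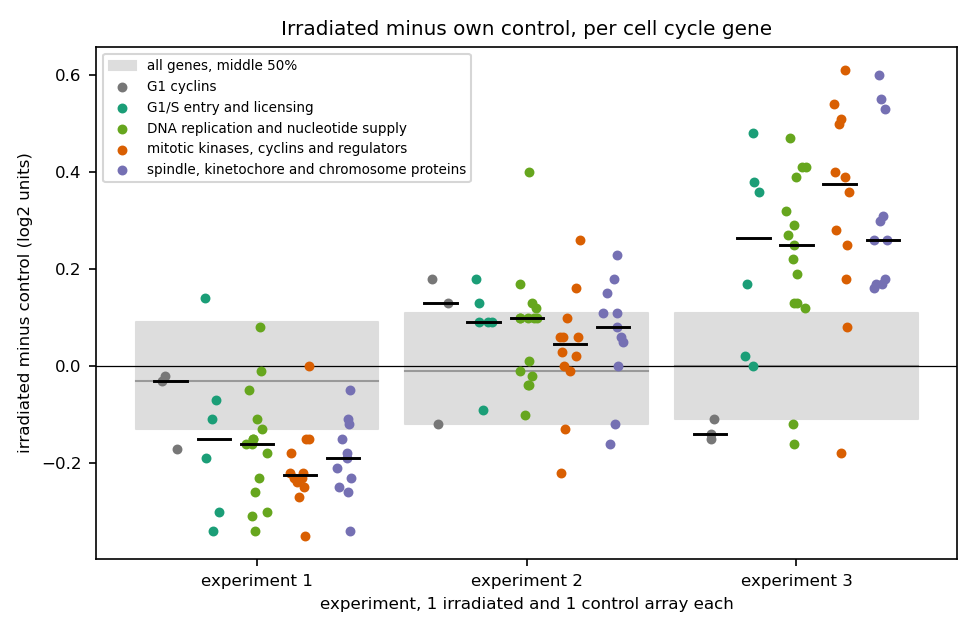
Irradiated minus own control in log2 units for each gene (points, coloured by role, with a bar at the median of the role) in experiments 1 to 3, where each experiment has 1 array per group; grey bands hold the middle 50% of all genes and the grey lines their medians. The medians of the 4 replication and mitotic roles lie between -0.23 and -0.15 in experiment 1, between 0.045 and 0.10 in experiment 2 and between 0.25 and 0.38 in experiment 3, while the D-type cyclins have a median of -0.14 in experiment 3.

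Splitting each gene's spread over the 6 arrays into irradiation, experiment and a remainder gave a large remainder. The remainder, which is what irradiated-minus-control differences that vary between experiments leave, held a median of 75.2% of the members' variation, against 39.0% over all genes. The experiment held 17.9%, against 36.3% over all genes, and irradiation 4.71%, against 11.4%. limma's F test among the 3 experiments called 0 of the 47 members after Benjamini-Hochberg adjustment (0.00% of all genes), and 0 had an unadjusted p under 0.05 (5.46% of all genes). Bub1b, a kinase of the spindle checkpoint, had the smallest p in that F test on its brightest probe set, at 0.0825 unadjusted and 0.921 adjusted in limma.

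Array quality and markers of other cell types can be set beside these values. The control of experiment 3, low in most members, also stood apart in the difference between 3′ and 5′ control probe sets, at 0.68 for actin and 0.11 for Gapdh, where the other 5 arrays lay between 0.50 and 0.57 and between -0.10 and -0.08. The irradiated culture of experiment 1, also low in most members, did not stand apart, at 0.57 and -0.09. Macrophage markers were bright in these cultures, with 15 of 16 measured at or above the median gene, among them Ptprc, the pan-leukocyte antigen, at 9.82. Their mean difference was -0.17, 0.051 and 0.13 log2 units in experiments 1 to 3, the same signs as the members. Their controls ran the other way from the members' controls: from experiment 1 to 3 these deviated by -0.19, 0.060 and 0.13 from the mean over the arrays for macrophage markers, and by 0.052, -0.020 and -0.10 for the members. The experiment held a median of 82.5% of the macrophage markers' variation and the remainder 14%. The mean log2 value of the 16 macrophage markers ran from 10.51 to 11.12 in irradiated and from 10.68 to 10.99 in control cultures. All 10 measured fat cell markers reached the median gene's level, and their mean was 0.039, -0.54 and 0.018. Of 15 measured stromal markers 14 reached it, while Thy1, a surface marker on that list, lay at 3.87. Ly6a, another surface marker on the list, had no probe set with its symbol alone and was not measured. The stromal mean was -0.0027, 0.29 and 0.083 in the 3 experiments. Endothelial markers were dim, with 0 of 6 at or above the median gene, and their mean was -0.068, 0.085 and 0.023. The stromal and endothelial means thus had the signs of the members, but the stromal -0.0027 in experiment 1 was almost no difference. In experiment 3 only 2 endothelial markers were above 0 and 4 were below, with a median of -0.015. The fat cell mean shared the members' sign in experiment 3 alone. The part of RNA quality or of macrophages in the members' values was not tested.

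**Figure D5:**
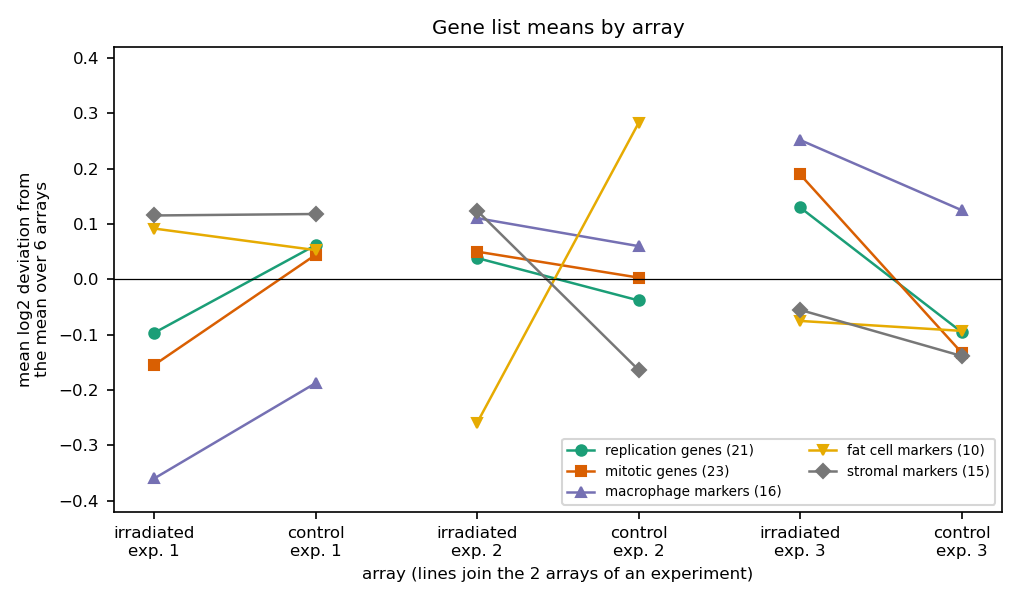
Mean deviation of each gene list from its mean over the 6 arrays, in log2 units, by array, with the irradiated and control array of an experiment joined by a line. Replication and mitotic genes lie close together on all 6 arrays, macrophage markers slope the same way, and fat cell markers stand apart in experiment 2.

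The 3 D-type cyclins, which pair with CDK4 and CDK6 in G1, had 3 of 3 differences below 0 in experiment 3, unlike the other roles. Ccnd3 had values of 8.51, 8.47 and 8.50 in the irradiated cultures of experiments 1 to 3, against 8.68, 8.59 and 8.65 in their controls. It was the 1 member whose groups did not overlap, and all irradiated arrays lay below all control arrays in 5.36% of all genes. The difference was -0.15 log2 units (SE 0.076, n = 3 pairs; limma unadjusted p 0.0979, Benjamini-Hochberg adjusted p 0.995), and its 2 dimmer probe sets, at levels of 5.58 and 3.94, had other signs in experiment 3. Ccnd1 stood at 11.83, 11.94 and 11.93 in irradiated cultures, against 11.86, 11.76 and 12.04 in controls, and Ccnd2 at 12.84, 12.86 and 12.71, against 12.86, 12.73 and 12.85. On these probe sets both were higher in the irradiated culture of experiment 2 alone. Dimmer probe sets of Ccnd2 had a larger difference in experiment 2, and some of them were also above 0 in experiment 1, the one at a level of 9.55 with 0.17, 0.87 and -0.53 in the 3 experiments and the one at 10.52 with -0.030, 0.83 and -0.49.

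Genes of entry into S phase and of origin licensing had a median difference of 0.070 log2 units over 6 genes, with 0 called. Cdc6, which loads the replicative helicase, had 5.46, 5.58 and 5.85 in irradiated cultures, against 5.80, 5.49 and 5.37 in controls. Its partner Cdt1 had 10.29, 10.47 and 10.61, against 10.48, 10.38 and 10.23. Gmnn, which encodes geminin, the inhibitor of Cdt1, had 9.00, 9.24 and 9.42, against 9.30, 9.11 and 9.06. In all 3 genes the controls were highest in experiment 1 and lowest in experiment 3, the irradiated cultures lowest in experiment 1 and highest in experiment 3, and the groups overlapped. Geminin, which holds licensing back, had the same pattern as the licensing factors. Ccne2, a cyclin E gene, differed from them, with 7.27, 7.24 and 7.07 in irradiated cultures, against 7.13, 7.06 and 7.07 in controls (0.11 log2 units, SE 0.081; adjusted p 0.995 in limma). Ccne1 and E2f1 had mean differences of 0.0033 and 0.00.

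Among the 15 genes of the replication fork and of nucleotide supply the median difference was 0.023, with 12 above 0 and 0 called. Rfc3, a subunit of the clamp loader, had the largest, at 0.22 log2 units (SE 0.13, n = 3 pairs; limma unadjusted p 0.128, adjusted 0.995). Its values were 7.12, 7.22 and 7.42 in irradiated cultures, against 7.27, 6.82 and 7.01 in controls, with its lowest value in the control of experiment 2, the lowest array without a tie in 7 members. The second, slightly dimmer probe set of Rfc3 had 0.010 in experiment 2 where the first had 0.40. Pole, the catalytic subunit of a leading-strand polymerase, had 6.68, 7.0 and 7.11 in irradiated cultures, against 6.84, 6.83 and 6.72. Pcna, the clamp itself, had 11.55, 11.67 and 11.69, against 11.73, 11.54 and 11.40.

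The 6 genes Mcm2 to Mcm7 encode the ring of the replicative helicase, whose subunits work as 1 complex. Mcm6 had 9.58, 9.83 and 9.88 in irradiated cultures, against 9.81, 9.73 and 9.47 in controls. All 6 were below 0 in experiment 1, at -0.34 to -0.050, and above 0 in experiment 3, at 0.13 to 0.47, whereas in experiment 2 they lay between -0.10 and 0.10. Some dimmer probe sets had other signs: one of Mcm4, at a level of 9.12, had 0.33 and -0.060 in experiments 1 and 3, one of Mcm6, at 9.04, had 0.070 and 0.10, and one of Mcm2, at 7.73, had -0.17 and -0.090. Rrm2, the regulated subunit of ribonucleotide reductase, ran the other way, with 0.080 and -0.16 in experiments 1 and 3, but its dimmest probe set, at a level of 8.89, had -0.010 and 0.30. Tyms, at a level near the dimmest probe sets, had -0.010 and -0.12. Rrm1, the large subunit, had -0.16 and 0.12, and Tk1, the thymidine kinase of S phase, -0.31 and 0.22. The primase gene Prim1 had -0.30 and 0.27, and the flap endonuclease gene Fen1 -0.15 and 0.13.

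Mitotic kinases, cyclins and their regulators had a median difference of 0.063 over 12 genes, with 9 above 0 and 0 called. Cdk1, the kinase that drives entry into mitosis, had 8.94, 9.19 and 9.29 in irradiated cultures, against 9.09, 8.93 and 8.78 in controls (0.21 log2 units, SE 0.13; limma unadjusted p 0.158, adjusted 0.995). Ccnb2, a cyclin B partner of Cdk1, had 8.37, 8.57 and 8.80, against 8.60, 8.41 and 8.19. Its 0.61 in experiment 3 (1.53-fold) was the largest difference in any experiment among the brightest probe sets of the members. Cdc25c, the phosphatase that activates Cdk1, had 5.52, 5.54 and 5.96, against 5.74, 5.44 and 5.57. The groups overlapped in all 3 genes.

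Plk1 and Foxm1 had mean differences below 0. Plk1, the polo kinase, had 7.24, 7.34 and 7.60 in irradiated cultures, against 7.59, 7.56 and 7.42 in controls (-0.13 log2 units, SE 0.12). Foxm1, the factor that switches on many mitotic genes, had 6.34, 6.63 and 6.59, against 6.56, 6.64 and 6.77 (-0.14, SE 0.084; limma unadjusted p 0.148). Its probe sets disagreed: those at levels of 5.81 and 5.75 had 0.65 and 0.44 in experiment 3 where the brightest had -0.18, and the mean over all its probe sets was 0.10. Bub1b had 6.93, 7.18 and 7.35 in irradiated cultures, against 6.93, 7.15 and 7.07 in controls, so that both arrays of experiment 1 were its lowest. Its next probe set, at a level of 7.01, did not share this, with 6.75 irradiated and 7.14 control in experiment 1. There the differences were -0.39, -0.060 and 0.47 in the 3 experiments. Of the other kinases Bub1, Aurkb and Ttk had 0.50, 0.54 and 0.40 in experiment 3 and -0.25, -0.18 and -0.23 in experiment 1. The cyclin A gene Ccna2 and the kinase gene Aurka had 0.36 and 0.25 in experiment 3 and -0.27 and -0.24 in experiment 1. Cdc20, an activator of the anaphase-promoting complex, had 0.080 and -0.15.

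Of the 11 genes of the spindle, the kinetochore and the mitotic chromosome all 11 were below 0 in experiment 1 and all 11 above 0 in experiment 3. Their median difference was 0.063, with 10 above 0 and 0 called. Mki67, which coats mitotic chromosomes, had 9.29, 9.65 and 9.76 in irradiated cultures, against 9.54, 9.59 and 9.16 in controls (0.14 log2 units, SE 0.16; adjusted p 0.995 in limma). Top2a, which untangles DNA, had 9.02, 9.36 and 9.49, against 9.28, 9.31 and 8.96. Birc5, which encodes survivin of the chromosomal passenger complex, had 8.64, 8.94 and 9.14, against 8.87, 8.83 and 8.59. In these 3 genes the control of experiment 3 was the lowest and its irradiated partner the highest array. Cenpa, the histone variant of centromeres, was less steep, with 8.15, 8.41 and 8.51, against 8.20, 8.18 and 8.25 (0.15, SE 0.093). The kinesins Kif11, Kif20a and Kif23 lay between -0.34 and -0.18 in experiment 1 and between 0.17 and 0.30 in experiment 3. A dimmer probe set of Kif23, at a level of 5.12, had 0.26, 0.32 and 0.43 in the 3 experiments (0.34, SE 0.089; unadjusted p 0.00630 and adjusted p 0.995 in limma over all probe sets). It was 1 of 3 among the 113 probe sets of the members with an unadjusted p under 0.05, beside dim ones of Aurka (0.0337) and Cenpa (0.0426), and 3.77% of all 45037 probe sets had one. The spindle genes Tpx2 and Nusap1 had -0.21 and -0.11 in experiment 1 and 0.16 and 0.18 in experiment 3, and the kinetochore genes Cenpe and Cenpf -0.15 and -0.12, and 0.17 and 0.31.

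The replication and mitotic arms had the same signs in each experiment. The 21 replication genes had means of -0.16, 0.077 and 0.23 log2 units in experiments 1 to 3, and the 23 mitotic genes -0.20, 0.047 and 0.32. The replication-minus-mitotic mean was 0.041, 0.030 and -0.097 in the 3 experiments and -0.0089 over them. In experiment 3 an irradiated-minus-control difference over 1.3-fold, a limit chosen after the values were seen, was reached by 6 replication and 9 mitotic genes, 15 of the 47 in all, where 2.81% of all genes and 1.79% of those at or above the median level reached it. In experiment 1 a 1.3-fold lower value was reached by 0 members (2.54% of all genes), and in experiment 2 a 1.3-fold higher one by Rfc3 alone (2.90% of all genes).

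Lists of other pathway genes, which hold no member, had means below 0 in experiment 1 and above 0 in experiments 2 and 3, while single genes varied. In limma with Benjamini-Hochberg adjustment 41 further replication genes gave 0 calls, and 0 had an unadjusted p below 0.05 (3.31% of all genes). Their means were -0.12, 0.047 and 0.16 in experiments 1 to 3. Over the 3 experiments 22 genes were above 0 and 18 below, where 45.2% of all genes were above 0. Asf1b, a histone chaperone, had the largest difference of that list, at 0.18 (SE 0.13), followed by Pold1 (0.15), Orc1 of the origin recognition complex (-0.14) and the deubiquitinase gene Usp1 (0.13). Among 63 further mitotic genes, with means of -0.12, 0.047 and 0.22, there were 0 calls. In limma 1 gene had an unadjusted p below 0.05 (3.31% of all genes). That gene was Cenpi of the kinetochore, with 6.77, 6.92 and 6.97 in irradiated cultures, against 6.79, 6.41 and 6.57 in controls (0.30, SE 0.12; limma unadjusted p 0.0400, adjusted 0.995). Troap (0.28), the Aurora A activator Bora (0.25) and the condensin gene Smc4 (0.23) came next.

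Regulators and inhibitors of the cycle had smaller list means. For regulators they were -0.045, 0.016 and 0.10 in experiments 1 to 3. In experiment 1 neither list lay below the mean of genes at or above the median level (-0.049). Below 0 in experiment 1 were 14 of 24 regulators and 8 of 14 inhibitors, against 66.9% of those brighter genes. In experiment 2, 11 of 24 regulators were above 0, against 48.1%. Of 24 regulators 0 were called and 1 had an unadjusted p under 0.05 in limma (3.31% of all genes), Mybl2, which encodes B-MYB. It had 5.05, 5.20 and 5.63 in irradiated cultures, against 5.08, 4.85 and 4.82 in controls (0.38, SE 0.15; unadjusted p 0.0453, adjusted 0.995), at a level below the median gene. With all its probe sets averaged Mybl2 had 0.24, and its unadjusted p in limma was not under 0.05. Tfdp2 (0.16), E2f5 (-0.14) and the repressor E2f7 (-0.12) followed. The 14 inhibitors and antiproliferative genes, all at or above the median gene, had means of -0.030, 0.026 and 0.059 in the 3 experiments and 0 calls, with Cdkn2b at 0.13 (SE 0.10), Btg1 at 0.12, Cdkn1a, the p21 gene, at -0.11 (SE 0.085) and Cdkn2c at -0.11.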

How the data were processed

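Each culture has a deposited column of log2 values by probe set. The submitters' processing notes name RMA, affy and limma without versions. The log base is not stated and was taken from the range of the values. The quantile step of RMA hides a change common to all transcripts, and RMA tends to understate changes of dim probe sets. Detection calls and scan dates were not used here.

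Of 45037 probe sets tested, after 64 control probe sets were left out, 34945 carried 1 symbol in the platform annotation, 932 several and 9160 none. limma 3.58.1 in R 4.3.3 (lmFit, eBayes) was fitted over 18193 genes, irradiated minus control with the experiment as a block, and its F test compared the 3 experiments with irradiation as a covariate. Benjamini-Hochberg adjusted p under 0.05 was a call. limma also called 0 of the 45037 probe sets in either comparison. Arrays were paired because the design sets each irradiated culture beside a control of its experiment; departures of paired arrays from the group means correlated at 0.15, -0.090 and -0.012 across genes. The scripts were tested on simulated data. The 48 members and all lists were chosen with earlier results of these data known, and get no test of their own. Named members are the 4 per role with the largest difference and the 4 with the smallest p among experiments, and of other pathway genes the 4 per list with the largest difference; genes named beside them complete a role or give the extremes of a range. Promoters shown are up to 4 per arm of the named members, by that p, with at most 30 bases inside the annotated gene. For 12 of the 48 genes no promoter was used. Alternatives were no block, a random block, no moderation, limma-trend, each experiment left out, all probe sets of a gene, genes at or above the median level, centred arrays and no irradiation term.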

Additional observations from a re-analysis of the deposited data

How the results depend on the processing

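No member was called under any alternative run, in either comparison. Over all genes irradiated minus control gave 0 calls except in an ordinary paired test without moderation, with 8, none a member. With no replicate block limma called 0 genes and 0 members, with 649 genes at an unadjusted p under 0.05, and the block changed no call. The F test among experiments called 2 genes with limma-trend, 1 with all probe sets of a gene averaged, 1 among the 9099 brighter genes and 1 with no irradiation term, again none a member. Leaving out 1 experiment, the median of the members ranged from -0.060 to 0.16 and the replication-minus-mitotic mean from -0.034 to 0.035. The members below 0 in experiment 1 numbered 38 to 39, those above 0 in experiment 2 29 to 35 and in experiment 3 36 to 41 under settings chosen after the data were seen (all probe sets, 42 genes at or above the median level, centred arrays). With all probe sets averaged, the median of the members was 0.063 (0.033 on the brightest probe sets), the replication-minus-mitotic mean -0.032 (-0.0089), Ccnd3 -0.023 (-0.15) and Rfc3 0.12 (0.22), and Ccnd2 turned to 0.050, Foxm1 to 0.10 and Bub1b to -0.0056, and with centred arrays Ccnd2 stood at 0. Averaging also made several pathway genes smaller: Bora 0.11 (0.25), Troap 0.175 (0.28), Pold1 0.045 (0.15), Tfdp2 0.071 (0.16), E2f5 -0.048 (-0.14) and Orc1 -0.050 (-0.14). Usp1 rose to 0.18 (0.13) and Cenpi stayed at 0.30.

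Leaving out 1 experiment turned the sign of 16 named genes, 13 of them without experiment 3. Their ranges were -0.070 to 0.075 for Ccnd1, -0.080 to 0.055 for Ccnd2, -0.050 to 0.24 for Cdt1, -0.13 to 0.29 for Cdc6, -0.085 to 0.25 for Gmnn, -0.065 to 0.26 for Mcm6, -0.025 to 0.21 for Pcna, -0.035 to 0.39 for Ccnb2, -0.060 to 0.33 for Birc5, -0.095 to 0.33 for Mki67, -0.11 to 0.29 for Top2a, -0.060 to 0.25 for Cdc25c, -0.0050 to 0.34 for Asf1b, -0.23 to 0.020 for Orc1, -0.22 to 0.035 for E2f7 and -0.19 to 0.020 for Cdkn2c. Rfc3 ranged from 0.13 to 0.41, Cdk1 from 0.055 to 0.39, Cenpa from 0.090 to 0.25 and Plk1 from -0.29 to -0.020, with no change of sign. With 2 pairs left, these values rest on 1 residual degree of freedom. The median standard error of the members' differences was 0.11 log2 units.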
